A study of Mus musculus with 4 samples.

Results

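MicroRNAs (miRNAs) of MC3T3-E1 cells that overexpressed Wnt5a were compared with those of MC3T3-E1 cells that overexpressed GFP, the control. MC3T3-E1 is a clonal line of osteoblast precursors from mouse calvaria. Both genes were delivered with a recombinant adenovirus vector, so the control carried a vector as well. All cultures were kept in proliferation medium based on alpha-MEM with serum. The comparison took 2 of the 4 arrays of the series, chosen by their labels, with 1 array per group and no replicates. The other arrays held RNA of cells with Wnt4 or Wnt3a in the same vector, and they entered the normalization and are given beside the results. Neither the dose of virus nor the time of harvest is given in the labels, and a miRNA array does not measure the Wnt5a transcript, so the overexpression itself could not be checked here. Each array holds 1 RNA sample, so culture, hybridisation and ligand cannot be told apart, and no p-value was computed.

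Wnt5a is a secreted ligand known mainly for signalling through Ror and Frizzled receptors without beta-catenin, and in bone it is made by osteoblasts and promotes osteoclast formation through Ror2. A mature miRNA is a short RNA cut from a hairpin, whose arms are called 5p and 3p. It pairs with messenger RNAs mainly through its seed, bases 2 to 8, and lowers their translation and stability. miRNAs with a common seed form a family, and miRNAs cut from a common transcript form a cluster. In osteoblasts several families act on Runx2, Smad proteins, collagens and Wnt pathway components. The series concerns miRNAs where Wnt and TGF-beta signals meet.

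The sequences of miRNAs with large differences, and of members of their families, are shown first. They are the mature sequences of RefSeq (GRCm38.p6), written 5′ to 3′, with the seed in capitals, and 1612 of the 1898 probe names had such an entry. The first group was higher on the Wnt5a array, or detected there and not on the GFP array in the case of miR-654-5p. None of these 6 has the seed of another.
miR-5129-5p: aUGUGGGGgcauugguauuuuc
miR-125b-2-3p: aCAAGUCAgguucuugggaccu
miR-21a-5p: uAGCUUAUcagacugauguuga
miR-5622-3p: cUUAGCUGgguagugguggugc
miR-7044-5p: gUGUGGUGgugguggcggc
miR-654-5p: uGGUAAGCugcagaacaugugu

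The next group was lower on the Wnt5a array. In it miR-221-3p and miR-222-3p have a common seed, and so belong to 1 family.
miR-140-3p: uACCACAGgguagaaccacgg
miR-361-5p: uUAUCAGAaucuccagggguac
miR-3068-3p: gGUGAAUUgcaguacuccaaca
miR-214-5p: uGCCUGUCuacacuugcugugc
miR-221-3p: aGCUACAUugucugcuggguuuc
miR-222-3p: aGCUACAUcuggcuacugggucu
miR-30e-5p: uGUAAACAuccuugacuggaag

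The last group is the let-7 family, whose detected members lay mostly below their GFP level. Its members have the seed GAGGUAG in common and differ in a few bases of the remainder, so a probe for 1 member may also bind another.
let-7i-5p: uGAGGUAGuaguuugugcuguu
let-7a-5p: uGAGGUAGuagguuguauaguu
let-7d-5p: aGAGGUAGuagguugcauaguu
let-7c-5p: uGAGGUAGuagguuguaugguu
let-7f-5p: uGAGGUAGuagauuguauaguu
let-7e-5p: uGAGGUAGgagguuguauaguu
let-7g-5p: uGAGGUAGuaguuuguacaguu
let-7b-5p: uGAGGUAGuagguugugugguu
miR-98-5p: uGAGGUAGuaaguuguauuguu

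A signal below is the raw median intensity of a spot, and each miRNA had 1 spot per array. A miRNA counted as detected when its signal exceeded a limit set from the blank spots of its array, the mean of their middle 95% with 2 SD added. That limit was 104 units for GFP and 111 for Wnt5a, against 86.9 with Wnt4 and 81.7 with Wnt3a. With GFP 616 of the 1898 miRNAs were detected and with Wnt5a 502, with 493 detected in both. A level is the log2 intensity after background correction with an offset of 50 and quantile normalization over the 4 arrays, and a difference is the level with Wnt5a minus that with GFP. The offset pulls the differences of dim miRNAs towards 0. The error given for a difference is a spot-noise standard error (SE) of 0.145, from 6 control probes with 8 spots each. It covers variation between spots of an array, and neither hybridisations nor cultures.

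With Wnt5a the miRNA profile stayed near that of the GFP array. On both arrays 493 miRNAs were detected, and a 2-fold difference was reached by 0 (0%) on the higher side and 0 (0%) on the lower side. A single miRNA (0.203%), miR-5129-5p, was at least 1.5-fold higher, and 0 (0%) were at least 1.5-fold lower. The differences had a median of 0.00 and an SD of 0.13, which is smaller than the spot-noise SE, and 377 of them (76.5%) lay within 1 SE of 0. There were 234 miRNAs (47.5%) above 0 and 234 (47.5%) below 0, and the remaining 25 were at exactly 0, because quantile normalization gives equal levels to equal ranks. With the miRNAs divided by level into 4 groups, the SD was 0.12 to 0.14 in each. Levels on the arrays correlated across these miRNAs, which share 2 hybridisations and are not replicates, with Pearson's r of 0.997. More than 2 SE from 0, that is past 0.290, were 10 miRNAs higher (2.03%) and 4 lower (0.811%).

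**Figure D1:**
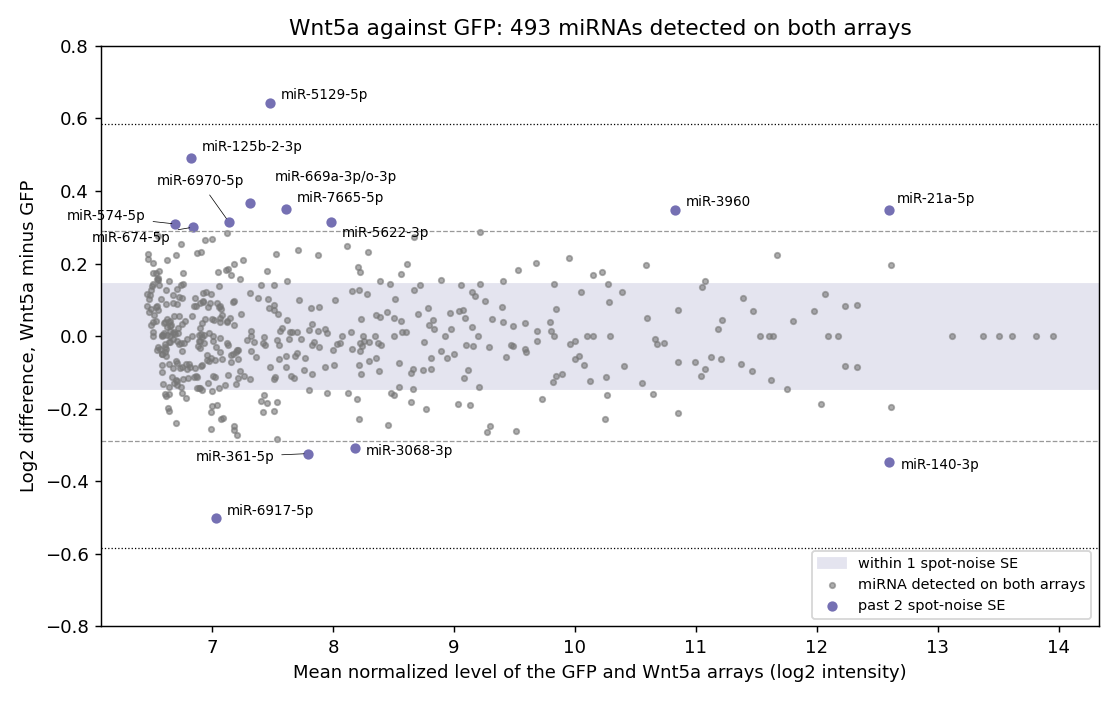
Log2 difference Wnt5a minus GFP (vertical axis) against the mean level of the arrays in log2 intensity (horizontal axis) for the 493 miRNAs detected on both. The band is within 1 spot-noise SE (0.145), dashed lines are at 2 SE and dotted lines at 1.5-fold; 14 miRNAs are past 2 SE and miR-5129-5p alone is past 1.5-fold.

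The largest difference among miRNAs detected on both arrays was that of miR-5129-5p, whose gene lies within Zeb2, the gene of a Smad-interacting transcriptional repressor. Its signal was 255 units with Wnt5a, 168 with GFP, 148 with Wnt4 and 178 with Wnt3a. The Wnt5a array thus stood above all the others, and the difference from GFP was 0.64 (SE 0.145), or 1.56-fold. It stayed above 0 in each of the 17 other ways of processing tried, from 0.12 with the scanner's background column to 1.13 in the authors' deposited table after rescaling. Its 3p arm, miR-5129-3p, was below the limit on both arrays, at 87.0 and 85.1 units.

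The second miRNA that set the Wnt5a array apart was miR-125b-2-3p, the opposite arm of miR-125b, a mammalian relative of lin-4 of Caenorhabditis elegans that is abundant in mesenchymal cells. It gave 156 units with Wnt5a, 118 with GFP, 88.5 with Wnt4 and 85.0 with Wnt3a, a difference from GFP of 0.49 (SE 0.145). The GFP signal was near the limit, and with the limit at 5 SD the miRNA no longer counted as detected on both arrays. The other products of these genes did not follow it. The abundant arm miR-125b-5p gave 12726 units with Wnt5a against 14365 with GFP, at 0.00 since it held an equal rank on both arrays, and miR-125b-1-3p gave 155 against 181, a difference of -0.25.

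These miRNAs were the only pair of 482 detected on all 4 arrays whose Wnt5a level lay more than 2 SE from the nearest of the other 3 arrays. The Wnt5a array had the highest level of the 4 arrays for 86 miRNAs (17.8%) and the lowest for another 86. By more than 1 SE it was the highest for 8 and the lowest for 7.

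At high signal the miRNAs past 2 SE were miR-21a-5p, miR-3960 and miR-140-3p. miR-21a-5p, made from the Vmp1 locus and known to act on Pdcd4, gave 7619 units with Wnt5a, 6669 with GFP, 6673 with Wnt4 and 12510 with Wnt3a. The Wnt5a array lay above the GFP array and well below the Wnt3a array. Its normalized difference was 0.35 (SE 0.145), but 0.19 without normalization between arrays, since at this brightness neighbouring ranks lie far apart. It was at 0.17 to 0.35 relative to all miRNAs in each setting except normexp with the background column, where it turned to -1.87.

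miR-140-3p, the main arm at the cartilage-associated miR-140 locus within Wwp2, gave 5727 units with Wnt5a, 7049 with GFP, 5582 with Wnt4 and 1135 with Wnt3a. In raw units, which are not scaled between arrays, the Wnt5a and Wnt4 arrays were close and below the GFP array. The Wnt3a array was far below all of these. As levels, both arms of the locus had a median difference from GFP of -0.09 with Wnt4, -0.22 with Wnt5a and -2.46 with Wnt3a. For miR-140-3p the difference with Wnt5a was -0.35 (SE 0.145), or -0.30 without normalization between arrays. miR-21a-5p and miR-140-3p had swapped ranks, which is why their differences were equal in size. The other arm, miR-140-5p, gave 2142 units with Wnt5a and 2379 with GFP, a difference of -0.09, within 1 SE. With the background column both arms turned above 0, to 0.48 and 1.08.

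miR-3960, reported in mouse osteoblasts to act on Hoxa2 and promote differentiation together with miR-2861, gave 2096 units with Wnt5a, 1640 with GFP, 1468 with Wnt4 and 2309 with Wnt3a. In raw units, which are not scaled between arrays, the Wnt5a and Wnt3a arrays were above the other pair. Its difference was 0.35 (SE 0.145), and 0.36 without normalization between arrays. Its neighbour miR-2861, which acts on Hdac5, did not go with it, with 3627 units against 4045 and a difference of -0.14. With the background column miR-3960 turned to -1.99.

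**Figure D2:**
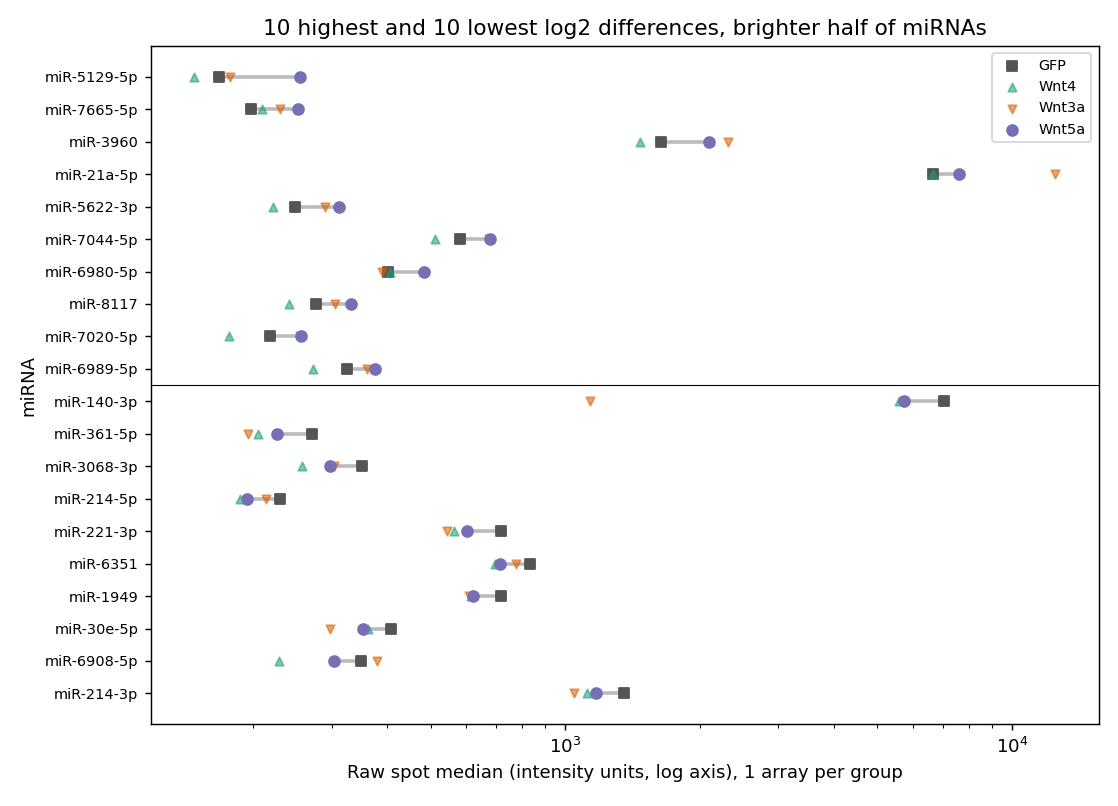
Raw spot medians (intensity units, log axis) on the 4 arrays for the 10 highest and the 10 lowest log2 differences, among miRNAs in the upper part of the levels (above a mean of 7.46). The grey line joins GFP and Wnt5a; miR-21a-5p went from 6669 to 7619 units and miR-140-3p from 7049 to 5727, and the Wnt3a array lies farthest from the others for both.

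The other higher miRNAs past 2 SE were dim. The probe shared by miR-669a-3p and miR-669o-3p, of the rodent cluster in Sfmbt2, gave 205 units with Wnt5a and 164 with GFP, at 0.37. miR-7665-5p gave 252 against 198, at 0.35, but on the Wnt4 and Wnt3a arrays it was also above GFP, by 0.37 and 0.30. miR-5622-3p, within the gene of the spindle factor Tpx2, gave 313 against 249, at 0.31, with 222.04 with Wnt4 and 290 with Wnt3a. miR-6970-5p at 0.32, miR-574-5p at 0.31 and miR-674-5p at 0.30 had signals of 137.3 to 180 units with Wnt5a, and were named after their values were seen. With the limit at 5 SD miR-574-5p no longer counted as detected on both arrays. miR-5622-3p and miR-6970-5p were below 0 with the background column.

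The other lower miRNAs past 2 SE were dim as well. miR-6917-5p, named after its values were seen, gave 132.2 units with Wnt5a, 180 with GFP, 118 with Wnt4 and 141.8 with Wnt3a, a difference of -0.50. With the limit at 5 SD it no longer counted as detected on both arrays, and with the background column it was at -0.05. miR-361-5p, from an intron of the X-linked gene Chm, gave 227 with Wnt5a, 272 with GFP, 205.7 with Wnt4 and 195 with Wnt3a, at -0.32. miR-3068-3p, within the demethylase gene Alkbh1, gave 298 with Wnt5a, 351 with GFP, 258 with Wnt4 and 304 with Wnt3a, at -0.31. In each of these 3 the GFP array had the highest raw signal of the 4 arrays, in units that are not scaled between arrays. The part of the GFP array in these differences was not tested. With the background column miR-361-5p turned to 0.29.

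Below these came a band of miRNAs between 1 and 2 SE, of which those above the median level of 7.46 are given. On the higher side the largest were miR-7044-5p at 0.29, with 681 units against 580, miR-6980-5p at 0.27, miR-8117 at 0.25, miR-7020-5p at 0.24 and miR-6989-5p at 0.23. Most of these were named late and their function is little known. Better known was miR-322-5p, the rodent counterpart of human miR-424 and a member of the miR-15 and miR-16 seed family, with 1126 units against 990 and a difference of 0.21. On the lower side the largest were both arms of miR-214, miR-221-3p at -0.26, miR-6351 at -0.26, miR-1949 at -0.25, miR-30e-5p at -0.25, miR-6908-5p at -0.23 and let-7i-5p at -0.21.

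Detected on one array alone were 9 miRNAs with Wnt5a and 123 with GFP. For these the bright signal was divided by the higher of the dim signal and its array's limit, all as levels, which gives a lower bound on the fold. The bound leaves out spot noise and rests on 1 spot per array. miR-654-5p, of the imprinted Dlk1-Dio3 cluster that is expressed from the maternal chromosome, gave 151 units with Wnt5a, 84.4 with GFP, 65.3 with Wnt4 and 64.7 with Wnt3a. It was not above the limit on any array but that of Wnt5a, and it was at least 1.59-fold higher there than with GFP. Its other arm, miR-654-3p, was under the limit on both arrays, at 91.2 and 83.5 units. The next bounds were smaller. miR-3070-5p, from the antisense side of Rtl1 in the same imprinted region, was at least 1.21-fold higher with Wnt5a, with 120 units against 101. miR-467e-5p and miR-1956 were at least 1.20-fold and 1.16-fold higher.

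In the other direction, miR-6364 exceeded its Wnt5a level on the GFP array by at least 1.15-fold, at 127.8 units against 109. miR-7044-3p followed at 1.12-fold and miR-466o-3p at 1.11-fold, again as lower bounds. The surplus of miRNAs detected with GFP alone came with a higher limit on the Wnt5a array, and with the limits at 5 SD, 124.3 and 132.3 units, 47 were detected with GFP alone and 5 with Wnt5a alone.

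The let-7 family, which represses Lin28, Ras and Hmga2 transcripts and is known for restraining proliferation, had most of its detected members below GFP. Of its 20 probes 9 were detected on both arrays, of which 7 were below 0, 1 above and 1 at 0, against 47.5% of all miRNAs below 0. The median of the 9 was -0.08, beside 0.00 over all miRNAs, and no member was past 2 SE. let-7i-5p gave 1858 units with Wnt5a, 2153 with GFP, 1938 with Wnt4 and 1873 with Wnt3a, a difference of -0.21. let-7a-5p gave 6083 with Wnt5a, 6992 with GFP, 5710 with Wnt4 and 4971 with Wnt3a, at -0.19. It had swapped ranks with miR-5126, whose difference was equal in size. The difference of let-7a-5p was -0.07 with quantile normalization over the GFP and Wnt5a arrays alone and -0.20 without normalization between arrays. let-7d-5p gave 4248 with Wnt5a, 5243 with GFP, 4097 with Wnt4 and 3274 with Wnt3a, at -0.19. In the last 2 of these the GFP array was the brightest and the Wnt5a array the next in raw units, which are not scaled between arrays. As levels, the median of the 9 members against GFP was 0.07 with Wnt4 and -0.19 with Wnt3a.

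The remaining let-7 members differed less. let-7c-5p was at -0.09, let-7f-5p at -0.08, let-7e-5p at -0.06, let-7g-5p at -0.05, let-7b-5p at 0.00 and miR-98-5p at 0.02. Relative to all miRNAs, the family's median was between -0.22 and 0.00 under each of the other settings, so it never turned, and 7 or 8 of the 9 members were below 0 in each setting except normexp with the background column, where 4 were. Against the Wnt4 array, a comparison that leaves out the GFP array but shares the Wnt5a array, the median was -0.18. With let-7k, which was added after its values were seen, 10 miRNAs with the let-7 seed were detected, of which 8 were below 0, with a median of -0.07. Since let-7 sequences differ by few bases, their probes may share signal, and the members are not separate observations.

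miR-214 and a copy of miR-199a are cut from Dnm3os, a transcript antisense to Dnm3 in mesenchymal cells, and miR-214 is reported to restrain bone formation through Atf4. All 5 probes for miR-199 and miR-214 were detected on both arrays. Against 47.5% of all miRNAs below 0, 4 of them were below 0 and 1 at 0, with a median of -0.06. Both arms of miR-214 made the largest part of this. miR-214-3p gave 1173 units with Wnt5a, 1356 with GFP, 1121 with Wnt4 and 1048 with Wnt3a, at -0.23. miR-214-5p gave 194 with Wnt5a, 230 with GFP, 187 with Wnt4 and 214.02 with Wnt3a, at -0.28. In raw units, which are not scaled between arrays, the GFP array was the highest of the 4 arrays for both arms. As levels, the median of the 5 probes against GFP was 0.02 with Wnt4 and -0.03 with Wnt3a. miR-199a-5p was at -0.06 and miR-199b-5p at -0.01, and the probe shared by miR-199a-3p and miR-199b-3p was at 0.00. The median of these 5 stayed below 0 relative to all miRNAs in each setting.

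The X-linked pair miR-221 and miR-222, which acts on the cell cycle inhibitor Cdkn1b and on Kit, had 2 of 4 probes detected, both below 0 with a median of -0.18. Over all miRNAs 47.5% were below 0. miR-221-3p gave 604 units with Wnt5a, 718 with GFP, 564 with Wnt4 and 545 with Wnt3a, at -0.26. miR-222-3p gave 240 with Wnt5a, 246 with GFP, 213.8 with Wnt4 and 215 with Wnt3a, at -0.09. The direction of the pair's median turned with the background column.

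The miR-23, miR-27 and miR-24 clusters, which Runx2 is reported to repress, lay at or slightly above GFP after quantile normalization. Of 11 probes 7 were detected on both arrays, with 6 above 0 and 1 at 0, against 47.5% of all miRNAs above 0, and the median was 0.07. All differences were small. miR-27b-3p gave 2279 units against 2177 with GFP, at 0.13, and miR-23a-3p gave 4737 against 4838, at 0.12, so that the raw signal of the latter was lower and its level higher. miR-24-1-5p was at 0.14, miR-23b-3p at 0.07, miR-27a-3p at 0.02 and miR-24-3p at 0.00. Relative to all miRNAs, 3 of the 7 members, miR-23a-3p, miR-23b-3p and miR-27a-3p, were below 0 without normalization between arrays and under scaling to the median, the upper quartile or the bright control probes. The median turned below 0 with the background column.

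miR-143 and miR-145a come from a common transcript, typical of smooth muscle and fibroblasts and induced by TGF-beta. With miR-145b, a separate gene, they had 3 of 5 probes detected, all above 0 with a median of 0.09. Over all miRNAs 47.5% were above 0. miR-143-3p gave 1303 units against 1275, at 0.09, and miR-145a-5p 1146 against 1031, at 0.12. miR-145b was at 0.01, and all 3 are within 1 SE. The median turned with the background column.

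**Figure D3:**
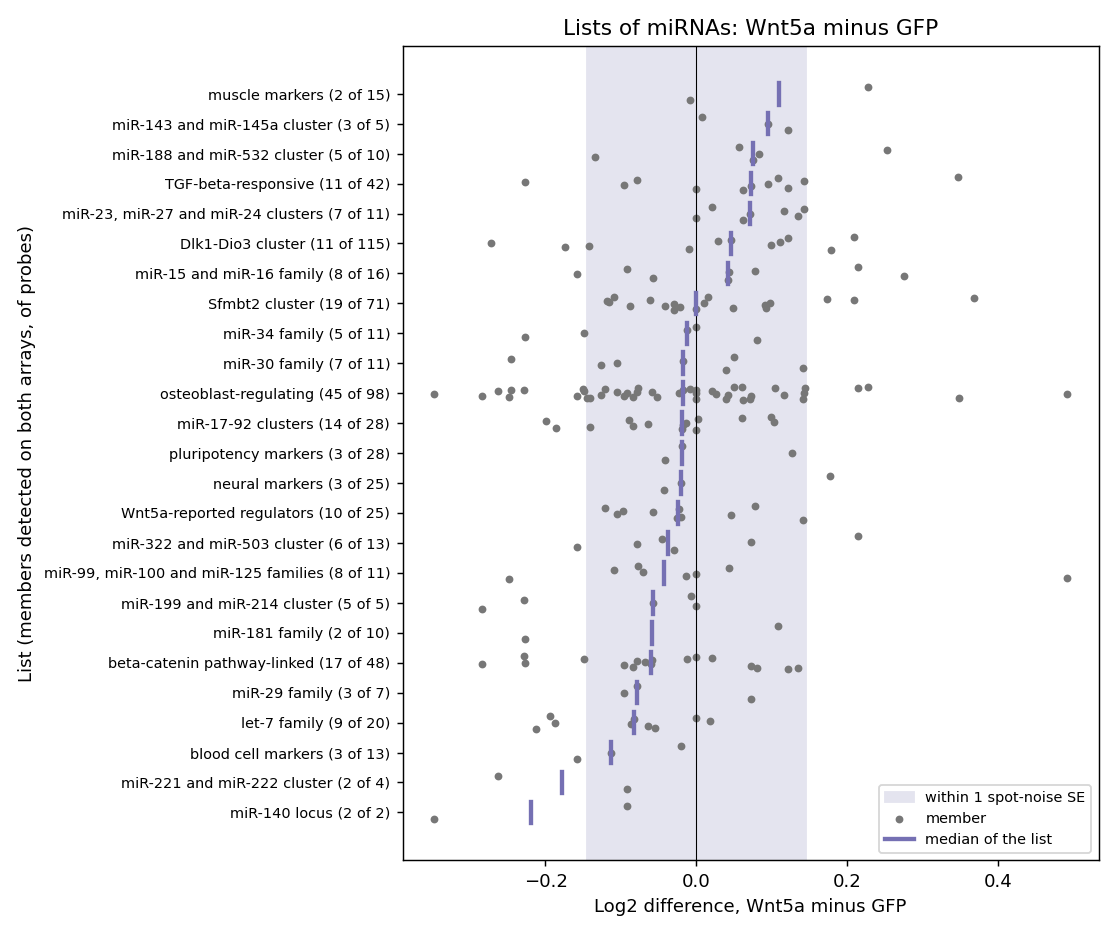
Log2 differences Wnt5a minus GFP (horizontal axis) of the members of each list detected on both arrays (points) with the list's median (bar); the numbers after each name are detected members and probes. The band is within 1 spot-noise SE (0.145); the medians of lists with at least 3 detected members lie between -0.11 and 0.09.

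Lists by reported function gave medians near 0. Every arm of a listed miRNA counts as a member, so a member can be an arm other than the reported one. Over all miRNAs 47.5% were above 0 and 47.5% below. Among miRNAs reported to respond to TGF-beta, 11 of 42 probes were detected on both arrays, with 7 above 0, 3 below and 1 at 0, and the median was 0.07. miR-21a-5p was the single member past 2 SE, and miR-181a-5p was the lowest at -0.23. The median was below 0 with the background column and without a filter on dim probes. Of miRNAs reported to regulate osteoblast differentiation, 45 of 98 probes were detected, with 18 above 0, 24 below and 3 at 0, and a median of -0.02. Past 2 SE this list held miR-125b-2-3p and miR-3960 on the higher side and miR-140-3p on the lower. Of these, miR-125b-2-3p is included as an arm of miR-125b, whose abundant arm miR-125b-5p was at 0.00. In the same list miR-204-5p, which acts on Runx2, was at 0.04, with 164 units against 161, and miR-26a-5p was at -0.12.

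miRNAs reported in other systems to act on Wnt5a or its receptors had 10 of 25 probes detected. Of these 3 were above 0 and 7 below, against 47.5% of all miRNAs below 0, with a median of -0.02. Their differences lay between -0.12 and 0.14, all within 1 SE. The lowest was miR-26a-5p, with 3300 units against 3438, and the highest miR-30a-3p, with 217 against 199.1. miR-30a-3p has another seed than miR-30a-5p, which was at -0.11, and both are members because every arm was included. miRNAs linked to the beta-catenin pathway had 17 of 48 probes detected. Of these 5 were above 0, 11 below and 1 at 0, against 47.5% of all miRNAs below 0, with a median of -0.06. The lowest of these were the arms of miR-214 and miR-34b-3p at -0.23, and the highest miR-27b-3p at 0.13. The medians of both lists, and of the osteoblast list, were above 0 under plain subtraction of the blank mean and in the deposited table, relative to all miRNAs. That of the regulators of Wnt5a was also above 0, at 0.0038, without normalization between arrays and under scaling to the median, the upper quartile or the bright control probes.

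The X-linked miR-322 and miR-503 transcript had 6 of 13 probes detected, with 2 above 0, 4 below and a median of -0.04, and miR-503-5p gave 281 units against 285, with 130 on the Wnt3a array. In the miR-30 family, which acts on Runx2 and Smad1, 7 of 11 probes of both arms were detected, with 3 above 0, 4 below and a median of -0.02. These include miR-30a-3p and miR-30e-3p, which have another seed than the 5p arms. By sequence, 3 detected members had the seed of miR-30e-5p, with 2 below 0, 1 above and a median of -0.11. miR-30e-5p gave 352 units against 408, at -0.25, while miR-30c-5p gave 1726 against 1509, at 0.05. Relative to all miRNAs, the medians of the miR-30 list and of the miR-322 and miR-503 list were above 0 under plain subtraction of the blank mean and in the deposited table. With the background column that of the miR-322 and miR-503 list was above 0 too. miR-146b-5p, which NF-kappaB is known to induce, gave 303 against 299 units, at 0.00. miR-6412 gave 5529 against 5631, at 0.09, with 2042 on the Wnt4 array.

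Several further families also had medians near 0. The miR-15 and miR-16 family had 8 of 16 probes detected and a median of 0.04, with miR-16-5p at 0.04 and miR-15b-5p at 0.08. The miR-17-92 cluster and its paralogs, known as oncogenic, had 14 of 28 probes detected and a median of -0.02, with miR-17-5p at -0.19, miR-25-3p at -0.20 and miR-20a-5p at 0.06. The collagen-targeting miR-29 family had 3 of 7 detected and a median of -0.08, which was above 0 in 10 of the other settings. The p53-linked miR-34 family had 5 of 11 detected and a median of -0.01, and the families of miR-99, miR-100 and miR-125 had 8 of 11 detected and a median of -0.04. Both medians were above 0, relative to all miRNAs, under plain subtraction of the blank mean, with the background column and in the deposited table. In the Dlk1-Dio3 cluster 11 of 115 probes were detected on both arrays, with a median of 0.05, of which miR-494-3p was at 0.18 and miR-345-5p at -0.27. The Sfmbt2 cluster had 19 of 71 detected and a median of 0.00, and the X-linked cluster of miR-188 and miR-532 had 5 of 10 detected and a median of 0.08. Relative to all miRNAs, the Sfmbt2 median was -0.26 under plain subtraction of the blank mean and -0.27 in the deposited table. That of miR-188 and miR-532 was -0.20 in each of these settings, and none of its members was detected on both arrays with the limit at 5 SD.

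Most markers of other cell types were below the limit on both arrays, and a few were clearly detected. The liver marker miR-122 was below the limit on both arrays in each of its 2 probes. The endothelial miR-126a and the epithelial miR-200 family had 1 detected probe each with GFP, at 109 and 105 units, and 0 with Wnt5a. Muscle markers had 2 of 15 probes detected on each array, with a summed signal of 1357 units with GFP and 1348 with Wnt5a. Neural markers had 4 of 25 with GFP and 3 with Wnt5a, pluripotency markers 7 and 3 of 28, and blood cell markers 5 and 3 of 13. Their summed signals were 2588 and 2515, 2869 and 2766, and 1825 and 1774 units in the same order. All these sums, those of the muscle markers included, hold the blank level of every probe and are mostly background. The mean of the blanks was 90.8 units with GFP and 96.9 with Wnt5a. The brightest markers were miR-486b-3p of blood cells, with 372 units with Wnt5a and 404 with GFP at a difference of -0.16, the pluripotency marker miR-290a-5p, with 322 and 332 at -0.04, and the neural marker miR-128-2-5p, with 349 and 313 at 0.18. The erythroid miR-451a gave 119 units with Wnt5a and 128.6 with GFP. The part of other cell types in the results was not tested. Of the mesenchymal miRNAs, miR-199a-5p, miR-143-3p, miR-21a-5p and miR-125b-5p were bright on both arrays. Other arms of mesenchymal miRNAs, among them miR-125b-1-3p, miR-214-5p and miR-222-3p, were dim. Some arms, such as miR-143-5p and miR-221-5p, were not detected on both arrays.

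Both arms were detected on both arrays for 49 hairpins, and in 23 of these their differences had equal sign. The miRNAs with the largest differences either way also differed in their share of G. Among miRNAs above the median level, the 15 highest had a median G share of 45.5% over the 11 with a sequence and the 15 lowest one of 27.3% over 14, against 38.1% over all 408 detected miRNAs with a sequence. Across these 408, which share 2 arrays, Spearman's rho of the difference with the G share was 0.15. Names up to miR-999 were above 0 in 39.6% of 225 miRNAs, and those from miR-5000 in 57.4% of 202. The median differences of these classes were -0.02 and 0.02. The part of base composition in the results was not tested.

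Position on the array also moved with the differences. The array has 32 blocks, and the median log2 ratio of the blank spots of a block, Wnt5a over GFP, ran from -0.14 to 0.19 relative to the median block. The median difference of the miRNAs of a block ran from -0.11 to 0.13. Across the 32 blocks, which share 2 arrays, these had a Pearson's r of 0.40 and a Spearman's rho of 0.43. miR-5129-5p lies in block 17, where the blank spots were at 0.10 and the miRNAs at 0.01. With the block's median subtracted its difference was 0.63, and with the blank median of all blocks made equal it was 0.59. For miR-125b-2-3p these values were 0.51 and 0.46, and for miR-21a-5p 0.26 and 0.35. For miR-140-3p they were -0.31 and -0.35, and for miR-214-3p -0.12 and -0.23.

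**Figure D4:**
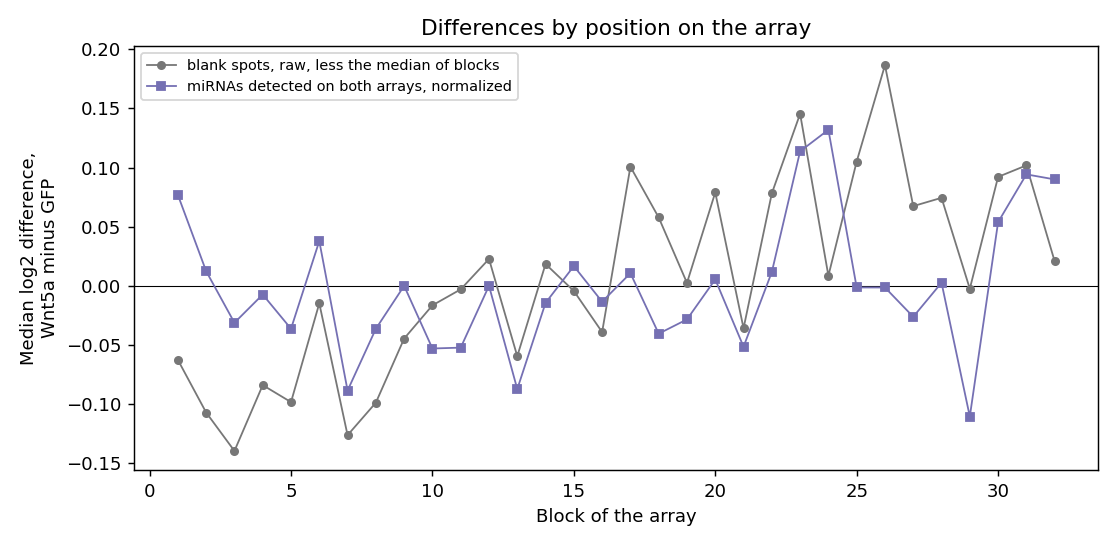
Median log2 difference Wnt5a minus GFP (vertical axis) in each of the 32 blocks of the array (horizontal axis), for blank spots as raw ratios less the median of blocks and for normalized miRNAs detected on both arrays. Blank spots run from -0.14 to 0.19 and miRNAs from -0.11 to 0.13.

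The deposited table of the authors gave a shifted picture of the same arrays. It lists 506 miRNAs with a value on both arrays, and their median log2 ratio of Wnt5a over GFP was -0.59, with 2.17% above 0. By the authors' deposited table, a 2-fold lower value with Wnt5a was found for 63 miRNAs and a 2-fold higher one for 0. Each array of that table has its own factor and a median of 25 over a different number of listed miRNAs, 638 with GFP. The factor of the Wnt5a array differed from that of the GFP array by -0.51 on the log2 scale. After rescaling on miRNAs listed on all 4 arrays the median was 0.01, with 2 miRNAs at least 2-fold higher and 7 lower. Within the table miR-5129-5p was at 0.53 and miR-125b-2-3p at 0.64, above GFP despite the shift, while miR-21a-5p was at -0.31 and miR-140-3p at -0.81.

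**Figure D5:**
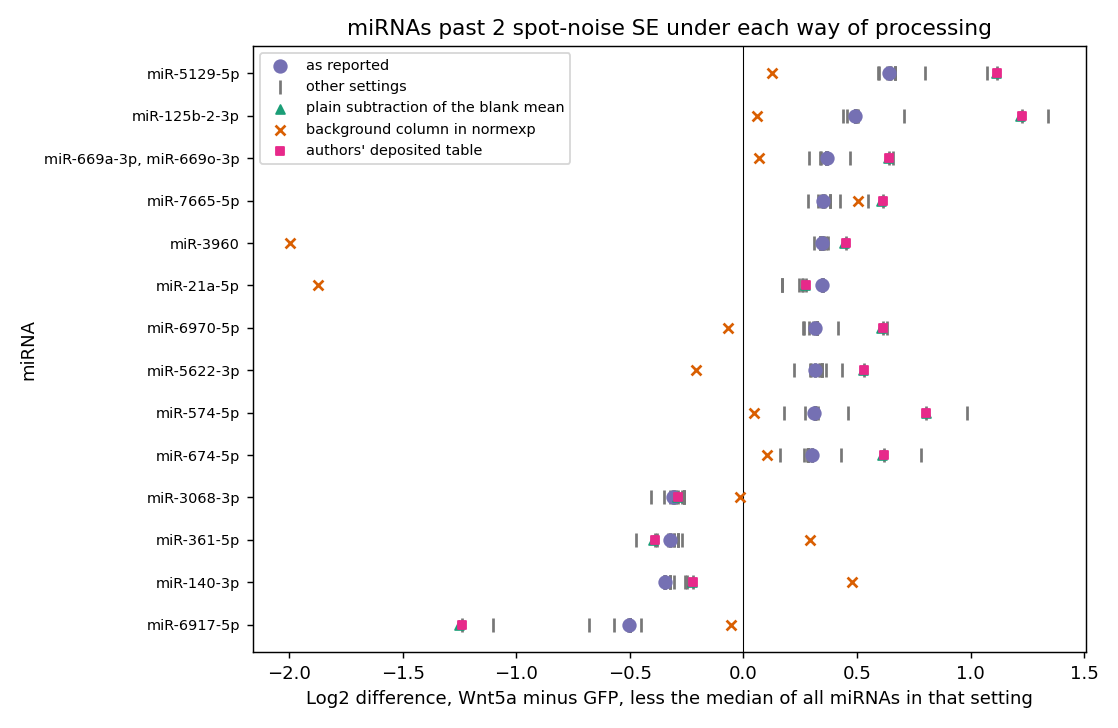
Log2 difference Wnt5a minus GFP, less the median of all miRNAs in that setting (horizontal axis), for the 14 miRNAs past 2 spot-noise SE under each way of processing. Points are the values as reported and marks the other settings; the background column, shown by crosses, puts 6 of the 14 on the other side of 0, and the remaining settings keep all on their side.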

How the data were processed

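miRNAs were measured on 4 one-colour arrays, with RNA labelled with Hy5 by a kit for LNA arrays per the labels' protocols, and scanned at 635 nm at 3 gains per the file headers. The deposited scanner files give a raw median intensity per spot, with 1900 miRNA probes and 896 blanks among 3200 spots. The authors' deposited table also holds an intensity, which equals a factor per array times the spot's median less the mean of blanks, to within 0.0509 units. The software behind it is not given in the labels. It was used as an alternative.

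Spot medians were corrected by normexp over all spots (offset 50), control spots were dropped and 1898 probes, without 2 marked bad on the GFP array, were quantile-normalized (limma 3.58.1, R 4.3.3; then Python 3.11.15, numpy 2.4.6, pandas 2.3.3, scipy 1.17.1, matplotlib 3.10.9). The background column was not used in this, since its values tracked those of the spots, with Pearson's r of 0.942 to 0.985. The spot-noise SE joins the SDs of control spots, 0.0719 with GFP and 0.126 with Wnt5a. Neither depth nor replicates exist, so the number of arrays limits the precision. The steps were run on simulated data with differences of 2-fold or more added to brighter miRNAs. Smaller differences and dim miRNAs were not covered by this.

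The members and the 29 lists were chosen with earlier results of these data known. Every arm of a listed miRNA was a member of its list. Above the median level, the 15 highest and 15 lowest miRNAs could be named, besides every miRNA at least 1.5-fold different, the 5 brightest detected on 1 array each way, the 10 brightest, both arms of miR-140, opposite arms, and the brightest and most different members of each list. Host genes come from the RefSeq gene table (GRCm38.p6), by name. Coordinates are left out, as no build is named in the files.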

Additional observations from a re-analysis of the deposited data

How the results depend on the processing

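Of 17 other settings, 14 were planned and 3 were chosen after seeing the data. The counts at 2-fold (0 higher, 0 lower) and 1.5-fold (1 higher, 0 lower) depended on the background correction, the scaling between arrays and the filter on dim probes. With an offset of 16 there were 2 higher and 1 lower at 1.5-fold. Plain subtraction of the blank mean gave 2 higher and 8 lower at 2-fold and 4 and 40 at 1.5-fold, and with quantile normalization added afterwards, one of the settings chosen later, 5 and 1, and 25 and 5. The background column gave 13 and 22 at 2-fold and 29 and 31 at 1.5-fold. Scaling on the bright control probes, which lay 0.10 lower with Wnt5a, moved the median of all miRNAs to 0.13 and gave 2 higher at 1.5-fold. The authors' deposited table gave 63 lower at 2-fold and 255 at 1.5-fold, and after rescaling 2 and 7 at 2-fold and 11 and 30 at 1.5-fold. Without a filter on dim probes miR-654-5p passed 2-fold, so 1 was higher, and at 1.5-fold 2 were higher and 1, miR-7035-3p, lower. The cause of the other shifts was not tested. In the other 9 settings these counts were within 1.5 times those reported. miR-5129-5p was at least 1.5-fold higher, relative to the median of all miRNAs, in each of them. With 1 array per group no array could be left out. No paired analysis was possible because each group has 1 array. Signals near the limit carry the least information: the offset shrinks their differences, and plain subtraction widens them.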

Other observations

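miR-1983, whose gene overlaps that of a transfer RNA, gave 194 units with Wnt5a, 220.7 with GFP, 119 with Wnt4 and 209 with Wnt3a, a difference of -0.21. miR-5126, within Dner, held a higher rank with Wnt5a at a lower signal, with 6706 units against 6955 and a difference of 0.19. miR-7005-5p, within the laminin gene Lama5, gave 3967 units with Wnt5a, 3227 with GFP, 2864 with Wnt4 and 3928 with Wnt3a, at 0.22. miR-31-5p gave 1917 with Wnt5a, 2017 with GFP, 1670 with Wnt4 and 3071 with Wnt3a, at 0.07.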
